A study of Mus musculus with 18 samples.

Results

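DNA methylation was described around 5 genes of prolactin signalling and alveolar development in the mouse mammary gland: Prlr, Stat5b, Stat5a, Stat3 and Elf5. Members were defined by position and depth, as the CpGs inside 3 windows of genome build mm9 that had at least 5 reads in all 18 libraries. They were chosen with earlier results of these data known. The windows were 10095 to 10290 kb of chromosome 15 (Prlr), 100635 to 100810 kb of chromosome 11 (Stat5b, Stat5a and Stat3, which lie side by side) and 103240 to 103300 kb of chromosome 2 (Elf5). They held 174 such CpGs of 309 listed in any library, against 711980 of 1485193 in the whole series. The Prlr window gave 12 of 18, the Stat window 149 of 260 and the Elf5 window 13 of 31. The other CpGs of the windows were too shallow in at least 1 library and have no level here.

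The assay was mRRBS, multiplexed reduced representation bisulfite sequencing, in which the enzyme MspI cuts DNA at CCGG and bisulfite turns unmethylated cytosines into uracil, so that the share of reads that keep a C is the methylation level of a CpG. All DNA came from mammary epithelium of C57BL/6 female mice, sorted into cells labelled as epithelial stem, luminal progenitor or mature luminal. Each cell type had 1 library per stage: week 3 or week 9 for virgin mice, day 10, 16 or 19 of gestation for pregnant ones, and a last stage of retired breeders, whose age is not labelled. That gave 2 virgin, 3 pregnant and 1 retired library per cell type. The stages of one state served as replicates, and since the labels do not say which libraries came from separate or pooled animals, p-values measure the spread between these libraries.

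Prolactin is a pituitary hormone that acts in alveolar growth during pregnancy and in milk production. Its receptor, encoded by Prlr, carries the kinase Jak2, which phosphorylates Stat5a and Stat5b. These transcription factors then enter the nucleus and switch on milk protein genes and, with the ETS factor Elf5, the alveolar programme of luminal progenitors. Stat3, their neighbour on the same chromosome, is best known in the gland for its part in involution after weaning. A CpG-rich promoter of an active or inducible gene is usually unmethylated, while CpGs within and between genes are usually methylated.

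The promoters of Stat5b, Stat5a and Stat3 were found in the files by the spacing of their CG pairs, and their measured CpGs, 28 in all, each had a median of 0.0% over the 18 libraries. They are shown 5′ to 3′ from RefSeq (build GRCm38.p6), from 250 bases before to 50 bases after the start of the transcript, with the CpGs measured in all 18 libraries in capitals. Stat5b is at chr11:100850532-100850831 on the minus strand, Stat5a at chr11:100860234-100860533 on the plus strand and Stat3 at chr11:100939491-100939790 on the minus strand. In the coordinates of the files (mm9) they matched chr11:100711846-100712145, chr11:100721548-100721847 and chr11:100800805-100801104, with the same spacing among the 3 as in RefSeq.
Stat5b promoter 1: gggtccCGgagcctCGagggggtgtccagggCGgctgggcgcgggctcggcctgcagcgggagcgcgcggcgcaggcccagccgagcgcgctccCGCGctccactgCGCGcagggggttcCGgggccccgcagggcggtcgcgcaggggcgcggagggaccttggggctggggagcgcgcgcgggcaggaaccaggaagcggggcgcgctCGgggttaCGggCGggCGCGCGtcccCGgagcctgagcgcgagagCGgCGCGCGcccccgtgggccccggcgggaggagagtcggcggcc
Stat5a promoter 2: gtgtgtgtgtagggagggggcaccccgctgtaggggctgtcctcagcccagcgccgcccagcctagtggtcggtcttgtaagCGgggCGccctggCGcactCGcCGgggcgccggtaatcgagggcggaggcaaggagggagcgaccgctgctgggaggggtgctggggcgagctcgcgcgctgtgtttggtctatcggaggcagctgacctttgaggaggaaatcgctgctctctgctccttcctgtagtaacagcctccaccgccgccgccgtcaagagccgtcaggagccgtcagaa
Stat3 promoter: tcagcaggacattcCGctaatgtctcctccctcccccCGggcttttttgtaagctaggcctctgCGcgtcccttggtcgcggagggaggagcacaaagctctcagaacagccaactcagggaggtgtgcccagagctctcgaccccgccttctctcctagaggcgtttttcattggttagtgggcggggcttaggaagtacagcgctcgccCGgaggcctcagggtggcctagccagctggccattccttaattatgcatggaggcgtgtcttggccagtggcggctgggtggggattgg

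The 3 promoters hold 50, 27 and 15 CG pairs, against a median of 7 over the 32851 promoters of the same length in the table, of which 34.6% had 15 or more. The other 7 of the members' 10 RefSeq promoters could not be placed in mm9 by this match. The placed Stat5b, Stat5a and Stat3 promoters were each shifted by -138686 bases from GRCm38.p6. Stat5a promoter 1 (chr11:100859406-100859705) and Stat5b promoter 2 (chr11:100822521-100822820) lie on the same chromosome. No coordinate was converted, so whether measured CpGs lie in or near the unplaced promoters was not established. Prlr promoter 1, with 8 CG pairs, and Elf5 promoter 2, with 10, are printed beside the 3 placed ones, with all CG pairs in capitals. Prlr promoter 1 is at chr15:10176988-10177287 and Elf5 promoter 2 at chr2:103423818-103424117, both on the plus strand of GRCm38.p6.
Prlr promoter 1: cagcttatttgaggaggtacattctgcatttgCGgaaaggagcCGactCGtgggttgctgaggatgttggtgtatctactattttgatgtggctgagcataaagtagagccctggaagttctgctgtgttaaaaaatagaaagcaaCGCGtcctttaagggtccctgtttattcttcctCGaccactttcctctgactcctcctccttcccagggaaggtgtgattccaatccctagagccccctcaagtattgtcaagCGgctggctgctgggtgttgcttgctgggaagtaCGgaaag
Elf5 promoter 2: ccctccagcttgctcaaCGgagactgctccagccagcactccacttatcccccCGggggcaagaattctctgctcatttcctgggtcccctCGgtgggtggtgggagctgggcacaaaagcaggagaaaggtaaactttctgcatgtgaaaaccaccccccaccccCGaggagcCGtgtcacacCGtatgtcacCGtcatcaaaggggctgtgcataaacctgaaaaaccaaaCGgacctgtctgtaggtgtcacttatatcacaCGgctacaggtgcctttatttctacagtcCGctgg

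None of the 3 Prlr promoters contains a CCGG, the cut site of MspI, which 52.8% of the 32851 promoters contain. Each Elf5 promoter has 1 CCGG and the Stat5b, Stat5a and Stat3 promoters shown have 4, 2 and 2. The STAT binding motif TTCNNNGAA, which reads the same on both strands, occurs in 8.3% of all promoters. Among the members it occurs in Prlr promoter 2 alone, where it overlaps no CCGG. These matches of letters are a description, and binding was not measured.

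Summed reads at listed CpGs were fewest in retired mature cells, 17513287, and most in week 9 mature cells, 117922522, with a median of 10 to 70 reads per CpG. No 2 libraries had the same counts at more than 3.05% of CpGs. The labels of the cell types could not be checked: of 20 marker genes, the promoters of Gata3 and Kit alone were placed, none of the Kit CpGs had enough reads in all libraries, and Gata3, a luminal factor, stood at 0.0 to 0.58% in all 18. Age is labelled for virgin mice alone, so age and pregnancy cannot be told apart. Depth moved with stage, from 51818940 reads or more in each virgin library to 24451074 or fewer in each retired one. Virgin stem libraries had 61868492 and 77982754 reads. Pregnant stem libraries had fewer, 52625738, 27040948 and 37710041 at day 10, day 16 and day 19. File layout moved with stage too, since the day 16 progenitor, day 19 and retired files had 6 columns and the rest 4. The part of age, depth and layout in the results was not tested beyond the alternatives given.

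Of the 174 member CpGs, 46.0% had a mean level of at most 5%, 27.6% of at least 80% and 26.4% lay between. The shares over the whole series were 35.4%, 43.7% and 20.9%. The low class was almost wholly in the Stat window (79 of its 149 CpGs), while the Elf5 window had 0 of 13 and the Prlr window 1 of 12. The plot of single CpGs along the windows shows these levels with their range over libraries.

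**Figure D1:**
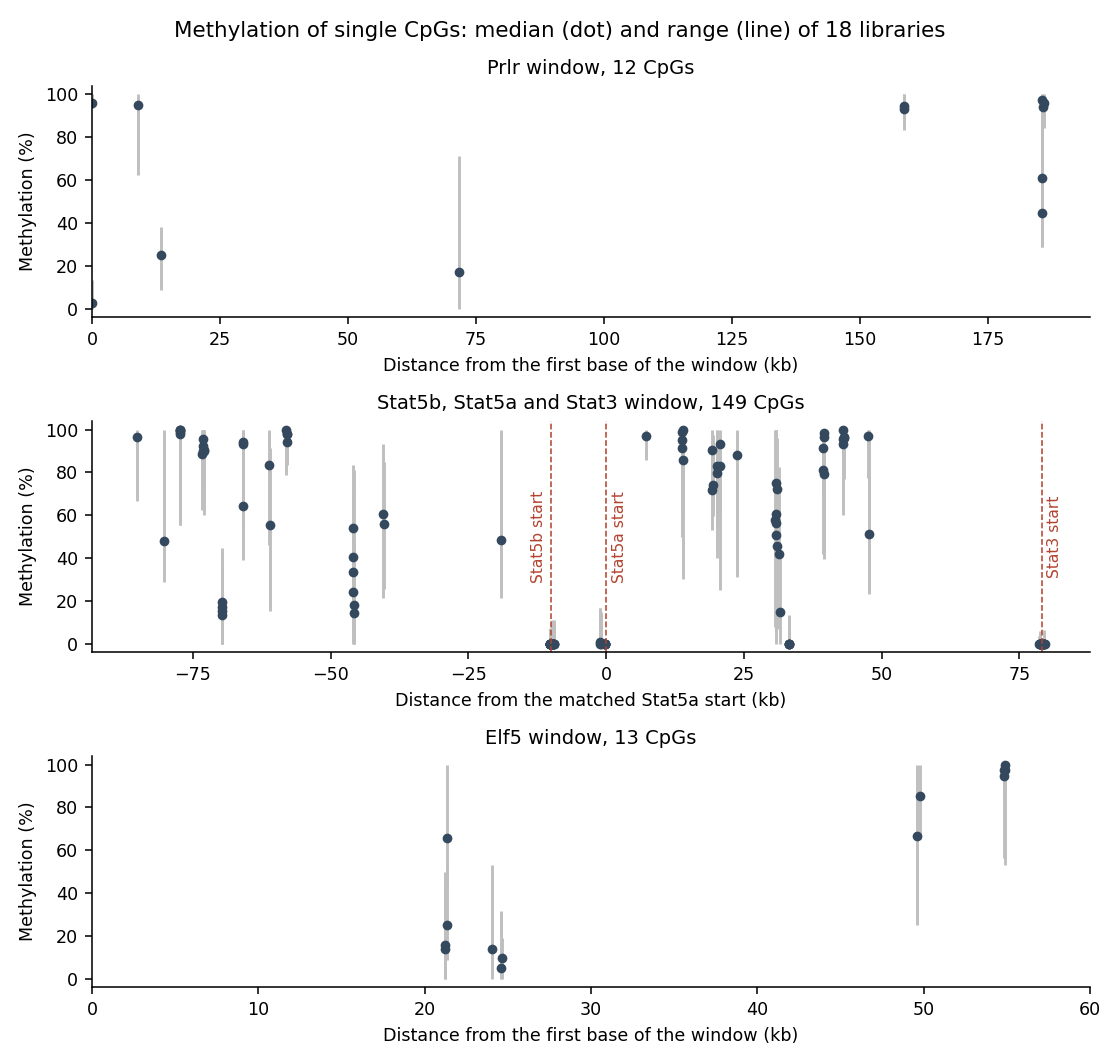
Methylation in percent (y axis) of the 174 member CpGs against distance in kb (x axis) from the first base of the window for Prlr and Elf5 and from the matched Stat5a start for the Stat window; dots are medians and lines the range of the 18 libraries, and dashed lines mark the matched starts. CpGs near the 3 starts sit at 0%, and most of those with long lines lie between the starts or beyond the Stat5b start.

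For tests, reads were summed in tiles of 1000 bases. The windows had 40 tiles with any member CpG, of which 23 held at least 3 CpGs and were tested with 77064 tiles of the genome in a quasi-binomial regression with Benjamini-Hochberg adjustment. Calls required both an adjusted p under 0.05 and 10 percentage points or more between the means. For pregnant against virgin stem cells 241 tiles of the genome were called (0.313%), and 0 of the 23 member tiles. The members' share at an unadjusted p under 0.05 was 3 of 23, against 14.3% of all tiles, and limma on log2 ratios called 0 of the 77064. In the other 11 comparisons the quasi-binomial test called 0 tiles of the genome (0.0%) and 0 member tiles, with 3.76% to 11.4% of all tiles at an unadjusted p under 0.05. Limma called 0 tiles in 9 of these and made calls in the 2 comparisons of retired breeders, given there. The differences given from here on therefore did not pass the test over the genome, and they are given as levels with their spread. Tiles of 1 or 2 CpGs are from a fit over all 193446 tiles with at least 1 CpG, where 112 tiles (0.0579%) and 0 of the 40 member tiles were called in that comparison.

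The receptor gene window, Prlr, was covered thinly, and its CpGs ranged from nearly unmethylated to nearly fully methylated. The tile of 5 CpGs at 10280001 to 10281000, the only tested one of the window, had 83.8% as the median of the 18 libraries, with a lowest of 79.2% and a highest of 95.2%. Its SD was 3.91 points, and pregnant and virgin libraries overlapped in each cell type. Single CpGs within it stood at different levels and could vary more over libraries than the tile. The CpG at 10280746 had 88.5 to 100%, and its neighbour at 10280727 had 28.6 to 77.8%, at least 18.9 points lower in each library. A second pair at the left edge of the window was sharper. At 10095015 methylation was 0.0 to 13.3% and at 10095035, 20 bases away, it was 93.6 to 100%, so that the pair differed by at least 86.7 points in all 18 libraries. Of the pairs of neighbouring member CpGs within 20 bases, 2 of 83 (2.41%) differed by 10 points or more in each library, against 1.91% over the genome. At 80 points or more it was 1 of 83, against 100 of 289623 (0.0345%) over the genome, and that 1 is the pair just named. The allele, strand and sequence behind each read are not in the files, so the base pairs behind this contrast were not analysed here.

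The CpG of the Prlr window that varied most was a single one, at 10166749 of chromosome 15. In stem cells it had 3.3% and 2.3% in the week 3 and week 9 virgin libraries and 71.1%, 64.3% and 37.5% at day 10, day 16 and day 19 of pregnancy. All 3 pregnant stem libraries lay above both virgin ones, and the retired stem library, at 60%, lay among the pregnant ones. The reads behind these values were few, 30 and 44 in the virgin, 38, 14 and 16 in the pregnant and 20 in the retired library. The 95% exact binomial interval was 0.1 to 17.2% at week 3, 0.1 to 12.0% at week 9, and 15.2 to 64.6% at day 19, the lowest of the pregnant libraries. These intervals cover counting error only, and reads may be copies of one molecule.

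The same CpG did not follow this order in luminal cells. Progenitor libraries had 37.2% and 1.3% in virgin and 14.3%, 19.0% and 14.3% in pregnant mice, and mature libraries 7.9% and 36.7% in virgin and 17.4%, 0.0% and 25.9% in pregnant mice. The 0 of 40 reads at day 16 in mature cells allows a level of up to 7.5%. The groups overlapped in both luminal cell types, and the virgin libraries of each differed by more than the pregnant ones. Mean levels in stem cells were 57.6% ± 17.7 (SD, n = 3) in pregnant and 2.8% ± 0.7 (n = 2) in virgin mice, a difference of 54.81 points. The adjusted p was 0.13 over all tiles with at least 1 CpG. Tiles were named partly because their groups did not overlap, so exact permutation p-values, which that choice fixes, are not given for them. The difference ran from 48.09 to 64.87 points when single libraries were left out, and its lowest value over all alternatives of processing was 37.41 points. In progenitor cells the difference was -3.39 points (adjusted p = 1.0) and in mature cells -7.86 points (adjusted p = 0.998). The difference between the stem and mature effects, 62.67 points, had an adjusted p of 0.312, and that between the stem and progenitor effects, 58.2 points, one of 0.417.

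The remaining Prlr tiles varied less over libraries. The pair of CpGs at 10253001 to 10254000 had 87.0 to 100%, and the single CpG at 10104015 had 62.5 to 100% with as few as 7 reads. The single CpG at 10108505 was low throughout, at 8.5 to 38.3%. In progenitor cells it had 22.2% and 16.9% in virgin and 27.6%, 30% and 31.6% in pregnant libraries, which do not overlap. The difference there was 10.14 points (adjusted p = 1.0).

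Among the signal transducers, the starts of Stat5b, Stat5a and Stat3 were close to unmethylated when their CpGs were summed. The Stat5b and Stat5a starts lie 9.9 kb apart and are transcribed away from each other, and the Stat3 start lies 79.1 kb beyond that of Stat5a and is transcribed towards it. At the Stat5b promoter 19 CpGs had a summed level of 0.0 to 0.99% over the 18 libraries, on 271 to 2143 reads. The 5 measured CpGs of the Stat5a promoter had 0.0 to 0.41% on 53 to 466 reads, and the 4 of the Stat3 promoter 0.0 to 0.92% on 67 to 608 reads. The median over libraries was 0.0% at all 3. The highest level of a single promoter CpG in a library was 11.1%, at 100711934 in the Stat5b promoter, where reads ran as low as 5. The CpGs concerned are the capitals of the sequences printed above.

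The low level reached beyond the promoters themselves. All 73 member CpGs within 1000 bases of one of the 3 starts had a median of 0.0%. The tile with most CpGs, 33 at the Stat5b start (100711001 to 100712000), had 0.0 to 0.6% on 351 to 3446 reads, and the 13 CpGs at the Stat3 start (100800001 to 100801000) had 0.0 to 0.4%. The widest 95% exact binomial interval of any library at these tiles was 1.1 points and 1.5 points. At the Stat5a start (100721001 to 100722000) 17 of the 18 libraries had no methylated read at 6 CpGs. The 3 CpGs of the tile 100720001 to 100721000 lie about 1 kb before the placed Stat5a start. They reached 11.7% at day 16 in stem cells, on 60 reads, and 10.0% in retired mature cells, on 20 reads. The other libraries had 0.0 to 3.9%. Whether these CpGs lie in Stat5a promoter 1, which was not placed, was not established. A further unmethylated stretch, 4 CpGs at 100754001 to 100756000, had 0.0 to 6.5%, and no promoter of the RefSeq table was matched there.

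Away from the starts, the Stat window was methylated to a variable degree, and here pregnant and virgin stem cells stood furthest apart. The Stat5b side of the window runs downstream of the placed Stat5b start, from which its distances are given. Stat5b promoter 2 lies further downstream in RefSeq but was not placed, so distances from its start were not established. The 2 CpGs at 100681001 to 100682000 lie 30.4 kb downstream of the placed start. They had 81.6% and 88.8% in the virgin stem libraries and 25.7%, 30.2% and 25.8% at day 10, day 16 and day 19. The retired stem library had 47.2%. Virgin and pregnant stem libraries did not overlap, and the lowest virgin value was far above the highest pregnant one. At the CpG 100681394 virgin stem libraries had 83.7% and 93.3% and pregnant ones 25.9%, 34.9% and 21.2%. At 100681418 they had 79.5% and 84.6% against 25.5%, 25.6% and 30.3%, so both CpGs showed the gap. Reads of the tile were 87 and 125 in the virgin, 105, 86 and 66 in the pregnant and 36 in the retired stem library.

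Luminal cells showed no such step at these CpGs. Progenitor libraries had 71.0% and 55.2% in virgin and 62.8%, 85.7% and 85.9% in pregnant mice, and mature libraries 86.1% and 49.4% in virgin and 49.6%, 45.9% and 76.9% in pregnant mice. The groups overlapped in both. The retired libraries had 47.2% in stem, 47.5% in progenitor and 50% in mature cells, the last on 10 reads. Group means in stem cells were 27.2% ± 2.6 (SD, n = 3) and 85.2% ± 5.1 (n = 2), a difference of -57.97 points with an adjusted p of 0.103. The quasi-binomial test called the difference once the week 3 mature library (adjusted p = 0.0245) or the week 9 mature library (adjusted p = 0.0246) was left out, which changes the shared estimate of the spread and not the stem levels. Tested directly, the stem effect differed from the progenitor effect by -73.05 points (adjusted p = 0.266) and from the mature effect by -47.66 points (adjusted p = 0.32), which was -29.29 points without the week 9 mature library.

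A neighbouring stretch moved the other way. The 5 CpGs at 100675001 to 100676000, 36.4 kb downstream of the Stat5b start, had 41.0% and 13.7% in virgin stem libraries and 42.1%, 50.9% and 50% in pregnant ones. The pregnant libraries were higher, but week 3 and day 10 nearly met, and week 9 was far below both. The difference was 20.35 points (adjusted p = 0.361). In mature cells the order was turned, with 38.9% and 38.7% in virgin and 23.0%, 30.6% and 36.1% in pregnant libraries, a difference of -8.91 points (adjusted p = 0.95). The single CpG of the next tile, 100676001 to 100677000, was likewise lowest at week 9 in stem cells: 46.4% and 0.0% in virgin, 37.5%, 40.0% and 81.2% in pregnant and 62.5% in retired libraries, on 5 to 32 reads.

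The 4 CpGs at 100652001 to 100653000, 59.4 kb downstream of the Stat5b start, were lower in pregnant stem cells. Virgin libraries had 37.7% and 31.5% and pregnant ones 1.7%, 13.3% and 28.4%, so the groups do not overlap, but day 19 came close to week 9. The difference was -20.15 points (adjusted p = 0.258). In progenitor cells the range was 9.8 to 26.7% and in mature cells 4.5 to 29.0%, with both groups overlapping. At 2 single CpGs of the same side, all 3 pregnant stem libraries were lower than both virgin ones: the difference was -17.18 points at 100641001 to 100642000 and -19.62 points at 100702001 to 100703000, with adjusted p of 0.601 and 0.641. At the first, day 19 rested on 16 reads, and the retired stem library had 30.8% on 13. At the second, day 16 (56.7%, 30 reads) nearly met week 9 (58.5%, 53 reads), and the retired stem library had 100% on 11 reads. At the second of these, progenitor cells had 58.3% and 59.1% in virgin and 57.1%, 33.3% and 33.3% in pregnant libraries, a difference of -17.44 points (adjusted p = 1.0).

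Between the Stat5a and Stat3 starts, 3 tested tiles were lower in all pregnant stem libraries than in both virgin ones. The widest gap was at the 7 CpGs of 100752001 to 100753000, 30.7 kb downstream of the Stat5a start. Virgin stem libraries had 61.3% and 83.5%, pregnant ones 41.4%, 39.4% and 51.4%, and the retired one 49.5%. The difference was -28.33 points (adjusted p = 0.293), and it ran from -39.44 points without week 3 to -17.22 points without week 9. The luminal libraries were spread as widely without that order: progenitor cells had 69.1% and 40.8% in virgin and 70.3%, 27.9% and 61.8% in pregnant mice, and mature cells 66.4% and 57.2% against 45.2%, 29.7% and 73.3%. Day 16 was lowest in all 3 cell types, at 39.4%, 27.9% and 29.7%.

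The other pair of tiles was more highly methylated. At the 4 CpGs of 100741001 to 100742000, 19.7 kb downstream of the Stat5a start, virgin stem libraries had 81.7% and 95.2% and pregnant ones 70.4%, 71.2% and 75.9%, while the retired stem library had 96.6%, above both virgin ones. The difference was -15.92 points (adjusted p = 0.146). Without the week 3 stem library it was -22.7 points and was called by the quasi-binomial test (adjusted p = 0.0333). Without the week 9 stem library it was -9.14 points. Progenitor and mature libraries had 71.4 to 80.3% and 74.9 to 90.8%, with differences of -3.19 points and 0.28 points. In the next tile, 100742001 to 100743000, virgin stem libraries had 77.3% and 86.5% and pregnant ones 75.0%, 61.9% and 74.6%, a difference of -11.41 points (adjusted p = 0.631).

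**Figure D2:**
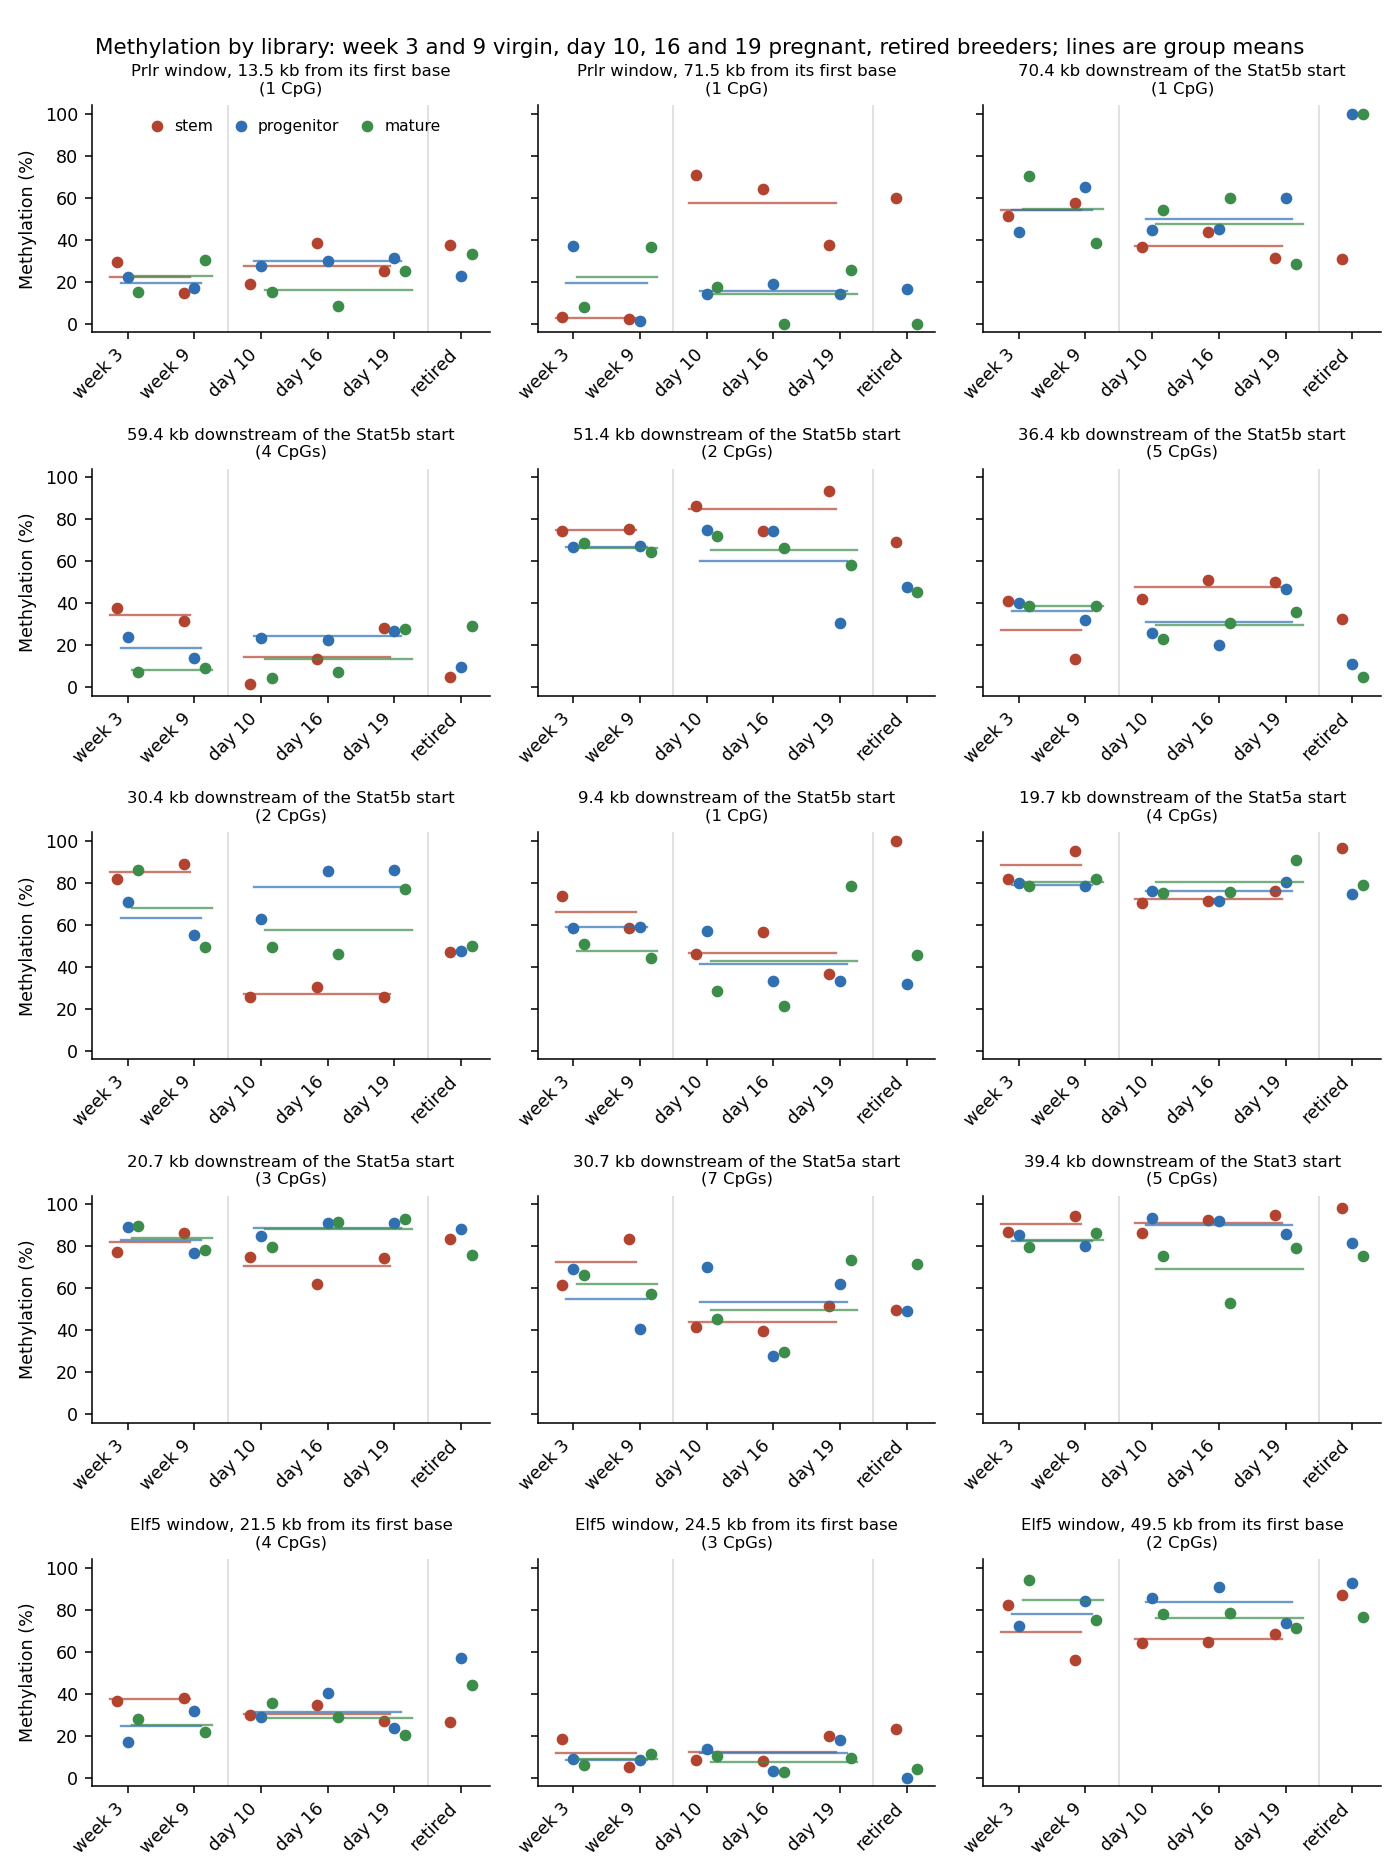
Methylation in percent (y axis) in each of the 18 libraries by stage (x axis) at 15 tiles of the windows, with 1 point per library, colours for the cell types and horizontal lines for the means of virgin and pregnant libraries. In stem cells the pregnant points lie above the virgin ones at the Prlr CpG (37.5 to 71.1% against 2.3 and 3.3%). They lie below them 30.4 kb downstream of the placed Stat5b start (25.7 to 30.2% against 81.6 and 88.8%). Luminal points overlap at both.

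Over the 3 windows 10 of the 40 tiles had 70% or more in all libraries, 8 had 12% or less in all, and 22 lay between or varied. Some tiles lay close to these cuts, with a highest of 11.7% at 100720001 to 100721000 and a lowest of 70.4% at 100741001 to 100742000. The shares over all tiles were not computed, so the counts only describe the windows.

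Over the windows as a whole, the direction in stem cells was mixed. Of the 23 tested tiles 11 were lower and 11 higher in pregnant stem cells, with a median difference of 0.0 points, against -0.22 points and 58.3% lower over all tiles. Stem groups that did not overlap and differed by 10 points or more were lower at 4 of 23 member tiles (6.86% of all tiles) and higher at 1 (2.55%). With tiles of 1 or 2 CpGs included, they were lower at 7 of 40 (8.42%) and higher at 2 (3.44%). In progenitor cells the corresponding count was 1 of 40 lower (1.38%) and 1 higher (2.01%), and in mature cells 1 lower (1.4%) and 0 higher (1.04%). The mature one was the tile 100761001 to 100762000. The plot of differences by cell type shows all 40 tiles.

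**Figure D3:**
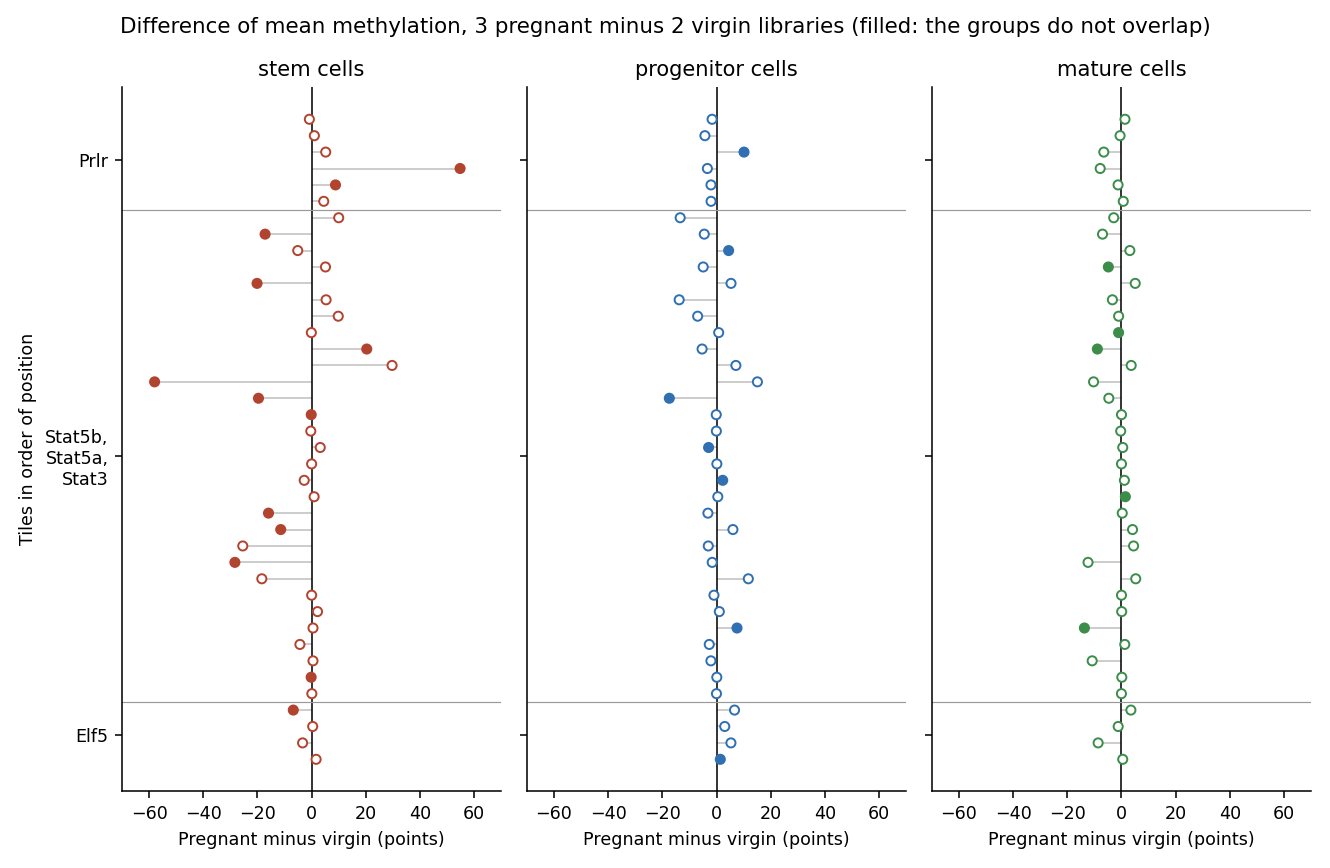
Mean methylation of the 3 pregnant minus the 2 virgin libraries in percentage points (x axis) at the 40 tiles in order of position (y axis), 1 panel per cell type; filled points are tiles whose pregnant and virgin libraries do not overlap, whatever their size. The largest values are in stem cells, 54.81 points at the Prlr CpG and -57.97 points downstream of Stat5b.

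Averaged over the cell types, 1 of 23 member tiles had an unadjusted p under 0.05 between pregnant and virgin libraries (6.53% of all tiles). It was 100741001 to 100742000, with -6.28 points (adjusted p = 0.748), or -4.01 points without week 9 stem. Within cell types, 0 of 23 did so in progenitor cells (3.76% of all tiles) and 1 of 23 in mature cells (5.08%). The mature one was 100761001 to 100762000, the 5 CpGs 39.4 kb downstream of the Stat3 start. Mature libraries there had 79.5% and 86.1% in virgin and 75.2%, 53.1% and 79.1% in pregnant mice, so week 3 and day 19 nearly met and day 16 was lowest. The difference was -13.69 points (adjusted p = 0.95). It was -5.66 points without day 16.

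Differences between cell types were compared within stages. At that same tile stem libraries, in the order week 3, week 9, day 10, day 16, day 19 and retired, had 86.8%, 94.6%, 86.4%, 92.6%, 94.7% and 98.2%. Progenitor libraries had 85.3%, 80.1%, 93.2%, 91.8%, 85.7% and 81.3%, and mature libraries 79.5%, 86.1%, 75.2%, 53.1%, 79.1% and 75.4%. Stem cells were above mature cells at all 6 stages, by 17.49 points on average (92.2% ± 4.7 against 74.7% ± 11.3, SD, n = 6 each) with an adjusted p of 0.214. The tile was named because all stages lay on one side. Mature cells were lowest at day 16, and the difference was 13.08 points without the day 16 pair.

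The 2 CpGs at 100660001 to 100661000, 51.4 kb downstream of the Stat5b start, had the same order. Stem libraries had 74.4%, 75.5%, 86.4%, 74.3%, 93.5% and 69.0%, and mature libraries 68.6%, 64.4%, 72.0%, 66.3%, 58.2% and 45.2%. Stem cells were higher at all 6 stages, by 16.41 points (adjusted p = 0.325), and this tile too was named for that order. Against progenitor cells the difference was 18.52 points (adjusted p = 0.456), and at day 16 both had 74.3%. It was 9.66 points without the day 19 pair. Of the 23 tested tiles 1 was higher in stem than mature cells at all stages with a mean difference of 10 points or more (0.372% of all tiles), and 0 were lower (0.548%). With tiles of 1 or 2 CpGs included, 2 of 40 were higher (0.514%) and 0 lower (0.714%). An unadjusted p under 0.05 was found at 3 of 23 for stem against progenitor cells (9.24% of all tiles), at 5 for stem against mature (10.9%), at 3 for progenitor against mature (5.95%) and at 3 for stem against both luminal types (11.3%), and limma called 0 in each. For the pregnancy effect in stem against progenitor cells it was found at 2 of 23 (10.5%), and in stem against mature cells at 4 (11.4%).

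Elf5, the alveolar regulator, had 4 tiles, and neither of its promoters was placed in mm9. The 4 CpGs at 103261001 to 103262000 had 29.5% as the median of 18 libraries. Stem libraries had 36.6%, 37.9%, 29.9%, 34.4%, 27.1% and 26.6% in stage order, progenitor libraries 17.1%, 31.7%, 29.0%, 40.3%, 23.8% and 57.1%, and mature libraries 28.0%, 21.9%, 35.6%, 29.1%, 20.5% and 43.9%. The highest values were those of the retired progenitor and retired mature libraries, on 63 and 82 reads, with 95% exact binomial intervals of 44.0 to 69.5% and 33.0 to 55.3%. Stem cells averaged 32.1% ± 4.9, progenitor cells 33.2% ± 14.1 and mature cells 29.9% ± 8.8 (SD, n = 6 each), and no pair of these differed beyond the spread (stem minus progenitor -1.1 points, adjusted p = 0.907; stem minus mature 2.22 points, adjusted p = 0.745). Pregnant stem libraries were all below virgin ones, with a difference of -6.77 points (adjusted p = 0.664).

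Single CpGs of that Elf5 tile stood at different levels. The CpG at 103261354 had 41.9 to 100% with a median of 65.5%, while the one 4 bases on, at 103261358, had 8.8 to 52.2% with a median of 25.0%. The pair at 103261235 and 103261242 had medians of 14.0% and 15.7%. The 3 CpGs at 103264001 to 103265000 were low, at 0.0 to 23.3%, and the 4 at 103294001 to 103295000 high, at 81.8 to 99.1%, the retired stem library being lowest there and all others at 93.5% or more.

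The 2 Elf5 CpGs at 103289001 to 103290000 were less methylated in stem than luminal cells on average. Stem libraries had 82.4%, 56.0%, 64.3%, 64.6%, 68.5% and 86.8% in stage order, progenitor libraries 72.3%, 83.9%, 85.7%, 90.8%, 73.8% and 92.5%, and mature libraries 94.3%, 74.9%, 77.9%, 78.6%, 71.4% and 76.5%. Stem cells were lower than progenitor cells at 5 of 6 stages, week 3 being the exception, and lower than mature cells at 5 of 6, the retired libraries being the exception. The differences were -12.73 points (adjusted p = 0.474, exact permutation p = 0.125) and -8.49 points (adjusted p = 0.482, exact permutation p = 0.0938). Pregnant and virgin libraries overlapped there in all 3 cell types, with differences of -3.33 points in stem, 5.31 points in progenitor and -8.62 points in mature cells.

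In retired breeders each cell type had 1 library, among the shallowest of the series. Averaged over cell types, retired libraries differed from virgin ones at an unadjusted p under 0.05 at 1 of 23 member tiles (5.29% of all tiles) and from pregnant ones at 1 (4.83%), in each case at 100675001 to 100676000. Retired libraries had 32.6%, 11.1% and 5.1% there in stem, progenitor and mature cells, on 129, 63 and 118 reads. Their mean of 16.3% differed from the virgin mean of 34.1% by -17.89 points (adjusted p = 0.885) and from the pregnant mean of 36.2% by -19.92 points (adjusted p = 0.946). The difference from virgin libraries was -29.45 points without the retired stem library and -9.97 points without the retired mature one. With limma on log2 ratios 38 and 65 tiles of the genome were called in these 2 comparisons. At the single CpG of 100641001 to 100642000 the retired progenitor and mature libraries had 100%, on 10 and 20 reads, and the retired stem library 30.8% on 13 reads.

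The tested tile of each window that varied most over libraries was also compared with 24724 tiles elsewhere that had an SD of at least 5 points. For 100752001 to 100753000 in the Stat window the closest were chr4:109330001-109331000 (Pearson r = 0.906 over 18 libraries) and chr6:134149001-134150000 (r = 0.903). For the Elf5 tile 103261001 to 103262000 they were chr19:37762001-37763000 and chr12:20422001-20423000, both with r = 0.85. For the Prlr tile 10280001 to 10281000 they were chr6:71633001-71634000 (r = 0.843) and chr11:68849001-68850000 (r = 0.82). These are the highest of many and are given as a description, the libraries sharing depth and stage.

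The other genes of the pathway could be looked up at their promoters alone. Of 26 genes on the list, 14 had a promoter placed in mm9 by the same match, 7 could not be placed (Prl, Ghr, Egfr, Tyk2, Ptpn6, Cish and Tnfsf11) and 5 had no entry in the table. The 14 genes gave 15 promoters, and 14 of these had a median of at most 1% over the 18 libraries, like the promoters of Stat5b, Stat5a and Stat3. Placing a promoter needed at least 6 listed CpGs on CG pairs, which favours CpG-rich promoters. The share over all promoters that could be placed was not computed, so the count says nothing particular to the pathway. The receptor Erbb4, which can also activate Stat5a, had 0.0 to 1.87%. The kinases Jak1 and Jak2 had 0.0 to 0.75% and 0.0 to 0.7%, and the phosphatases Ptpn1 and Ptpn11 had 0.0 to 0.23% and 0.0 to 0.75%. Jak1 rested on 3 CpGs with 21 reads in the shallowest library, and Ptpn11 on 2 CpGs with 11. The feedback inhibitors Socs1 and Socs3 had 0.0 to 0.53% and 0.0 to 1.04%. Among targets and alveolar regulators, Wnt4 had 0.0 to 2.26%, Cebpb 0.0 to 1.45%, Id2 0.0 to 1.79%, Akt1 0.0 to 0.56%, and Igf2 0.0 to 5.26% on 1 CpG. The values are those of Akt1 promoter 2 and Igf2 promoter 3, and the other RefSeq promoters of both genes were not placed. The exception was 1 of the promoters of Pias3, an inhibitor named for its binding to Stat3, with 0.0 to 11.63% and a median of 3.3% over 7 CpGs, next to a second Pias3 promoter at 0.0 to 0.36%.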

How the data were processed

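Bisulfite reads at CpGs were compared among 18 mouse mammary libraries. The authors deposited, per CpG, methylated and total read counts, and in 7 files also a score, which was 1000 times the methylated share. The build was mm9, per the submitters' processing notes. Which aligner and caller were used is not given in the sources used here. The members and lists were chosen with earlier results of these data known.

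CpGs read 5 times or more in every library were summed in tiles of 1000 bases with at least 3 CpGs. A quasi-binomial logistic regression was fitted across all tiles (numpy 2.4.6, scipy 1.17.1), with the dispersion moderated as in limma and held at 1 or more. Pregnancy and retirement were tested over 9 groups of cell type and state. Cell types were tested with the stage as a block, which pairs the libraries of a stage by their labels. P-values were Benjamini-Hochberg adjusted over all tiles, and calls needed an adjusted p under 0.05 and 10 points. The alternative was limma 3.58.1 (R 4.3.3) on log2 ratios with a pseudocount of 1. Exact permutation tests were two-sided and not adjusted. The fit was tested on simulated data.

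Named tiles were those at a placed promoter, up to 4 per window with the largest SD of at least 5 points, and those whose groups lay on one side by 10 points. Applying this to tiles of 1 or 2 CpGs was decided after values were seen, as was naming single CpGs and the tiles beside them. Promoters were placed where at least 6 listed CpGs fell on CG pairs, 2 more than at any other offset. No coordinate was converted between builds.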

Additional observations from a re-analysis of the deposited data

Results flagged for a closer look

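At the 5 CpGs of 100675001 to 100676000, downstream of Stat5b, all pregnant stem libraries lay above the virgin ones and all pregnant mature libraries below. In stem cells week 3 (41.0%) and day 10 (42.1%) nearly met. The stem effect minus the mature effect was 29.27 points (adjusted p = 0.346 by the quasi-binomial test), from 20.35 points in stem and -8.91 points in mature cells. It was 15.6 points without the week 9 stem library and 42.93 points without week 3 stem. The mature difference was below 10 points in size. The share of all tiles with such opposite orders was not computed.

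At the 5 CpGs of 100761001 to 100762000, downstream of Stat3, all pregnant progenitor libraries lay above the virgin ones and all pregnant mature libraries below. The groups nearly met in both. Progenitor cells had 85.3% at week 3 and 85.7% at day 19, and mature cells 79.5% and 79.1%. The progenitor effect minus the mature effect was 21.24 points, from 7.55 points and -13.69 points, and this difference was not tested. The mature effect was -5.66 points without the day 16 mature library. The progenitor effect was below 10 points, and the share of all tiles with opposite orders was not computed here either.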

How the results depend on the processing

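Of 58 results with 1331 values under the alternatives, 1288 kept their direction and side of the threshold or, for counts, stayed within 1.5 times. Many of these could not differ. Leaving out a library outside the compared groups leaves a difference unchanged. The mean of CpG levels kept the adjusted p of the main fit. At tiles of 1 or 2 CpGs, comparisons other than stem pregnancy were not refitted without single libraries, so only their direction was checked there. Most other alternatives kept at least 3 CpGs per tile and did not include these tiles. No difference changed sign. None of the named differences was called to begin with. For pregnancy in stem cells the 241 calls became 0 with limma, 47 with 10 reads in all libraries, 26 with tiles of 500 bp, 112 with at least 1 CpG per tile and 701 with any CpG of 5 reads in a library. Limma called 38 tiles for retired against virgin and 65 for retired against pregnant libraries, against 0. For stem against mature cells 6 tiles were called with no replicate block for the stage, against 0 with it, and the block changed no other call. With 10 reads, 1 tile was called for stem against mature cells and 3 for the difference between their pregnancy effects. For stem against both luminal types 2 were called with at least 1 CpG per tile and 16 with any CpG.

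Leaving out single libraries moved the stem pregnancy count from 0 to 1466. It was 0 without the day 10 or day 16 stem library, 1 without week 9 stem, 800 without week 3 stem and 1466 without week 3 or week 9 mature. It was 10 without week 3 or week 9 progenitor, 21, 3 and 16 without day 10, day 16 and day 19 progenitor, 24 without day 16 mature and 608 without day 19 mature. The same gave 0 to 29 for pregnancy in mature cells, 0 to 8 for stem against mature, 0 to 84 for stem against both luminal types, 0 to 37 for the stem minus progenitor pregnancy effect and 0 to 1397 for the stem minus mature one. Window tiles called in stem pregnancy were 0 to 1, the 1 being 100741001 to 100742000 without week 3 stem (-22.7 points, adjusted p = 0.0333). The tile 100681001 to 100682000 was called without week 3 or week 9 mature (-57.97 points, adjusted p = 0.0245 and 0.0246). Where a library is left out of 2, the spread of the lone one is taken from the other groups. The cause was not tested.

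Depth limits single CpGs most: at 100676001 to 100677000 the reads were 5 to 55 and the widest 95% exact binomial interval spanned 80 points.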
